A study of Mus musculus with 3 samples.

Results

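Binding of the forkhead factor Foxf2 near 9 other forkhead genes was described in the embryonic mouse tongue. The genes are Foxp1, Foxp2, Foxp4, Foxo1, Foxo3, Foxn2, Foxn3, Foxk1 and Foxk2. A peak was counted for a gene when its midpoint lay nearer to a transcription start site (TSS) of that gene than to one of any other protein-coding gene. By this rule 92 of 25704 peaks belonged to the 9 genes. They fell on 8 of them, 42 on Foxp1, 14 on Foxp2, 9 on Foxo1, 8 on Foxp4, 7 on Foxn3, 6 on Foxo3, 4 on Foxk1 and 2 on Foxn2, whereas Foxk2 had none. Foxp1 was included because it has many peaks, so the number of peaks is a description and was not tested. Over all 21938 protein-coding genes, 37.3% were nearest to at least 1 peak and 2.26% to 10 or more. When starts of every gene type were counted, noncoding ones included, 46 of the 92 peaks stayed with these genes. The share of all protein-coding genes with a peak was then 25.9%. How many peaks of the whole list stayed with their gene is not given here, so the 46 have no background.

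The data came from tongues of E12.5 embryos homozygous for Foxf2 with a 3xFLAG tag at the endogenous locus, introduced by genome editing. There were 2 libraries of chromatin precipitated with an antibody against FLAG and 1 library of input chromatin from the same tagged genotype, and all 3 samples carry the same note of 75 tongues, which leaves unsaid whether the tissue was shared. No FLAG precipitate of untagged tissue was analysed here, so signal that does not depend on the tag was not measured. The peaks are 1 list with no value per library, and the labels do not say how the ChIP libraries were combined to make it. Spread between replicates, and the depth behind a peak, are therefore unknown. The tissue was whole tongue, and no measure of gene expression or cell type was used here.

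Forkhead proteins share a winged-helix DNA-binding domain that reads a short A-rich core, and many members of the family can bind the same core. Foxf2 is made in the neural crest-derived mesenchyme of the tongue and palate. The 9 genes studied here encode forkhead factors with wide expression. Foxp proteins are mostly repressors that pair with one another through a leucine zipper. Foxo proteins are activators that leave the nucleus when insulin or growth factor signalling activates AKT. Foxk proteins hold a forkhead-associated domain beside the forkhead domain, and Foxn3 is known as a checkpoint suppressor.

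The sequences below come from the highest-scored peaks of Foxk1, Foxo3, Foxp2 and Foxp4. They are 4 of the 5 highest of the 92 peaks, and the other one, at Foxp1, holds no forkhead core. A forkhead core was counted where the letters GTAAACA occurred, and likewise for the form ATAAACA, for the form GTAAATA and lastly for the form ATAAATA, on either strand in the central 200 bp of a peak. Each sequence shows 1 core in capitals with 10 bases to either side, read on the strand that holds the core (mm10). Scores are HOMER's, as deposited by the authors, on a scale that the sources used here do not state. The Foxk1 site is at chr5:142367491-142367517 (plus strand), in a peak scored 124.6, and is 1 of 2 overlapping cores there. The Foxo3 site is at chr10:42203444-42203470 (minus strand), in a peak scored 84.9. The Foxp2 site is at chr6:15257849-15257875 (minus strand), in a peak scored 77.2. The Foxp4 site is at chr17:47943214-47943240 (minus strand), in a peak scored 67.4, and is 1 of 3 cores there.
Foxk1: agttctgtttATAAACAcaccgcgcga
Foxo3: tttccacaagGTAAACAtggcttggaa
Foxp2: ttctgccactGTAAACAgaactgcata
Foxp4: agctgggtgaGTAAACAggcccattgg

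Another set shows cores beside transcription starts of the same gene family, in peaks scored lower than those above. The Foxp1 site is at chr6:99266576-99266602 (plus strand), in a peak 54 bp upstream of a start. The Foxo1 site is at chr3:52268054-52268080 (plus strand), in a peak 232 bp upstream of the start. The Foxo3 site is at chr10:42275897-42275923 (minus strand), in an intron 792 bp downstream of a start. The Foxp2 site is at chr6:15185633-15185659 (plus strand), in a peak 124 bp downstream of a start, and is 1 of 2 cores there.
Foxp1: gcccctttgcATAAACAcaaacactca
Foxo1: gcactctgtaGTAAACAaaagtatggt
Foxo3: agagccaaacATAAACAaacgcacgca
Foxp2: aaatactgctGTAAACAgttgcctgat

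**Figure D1:**
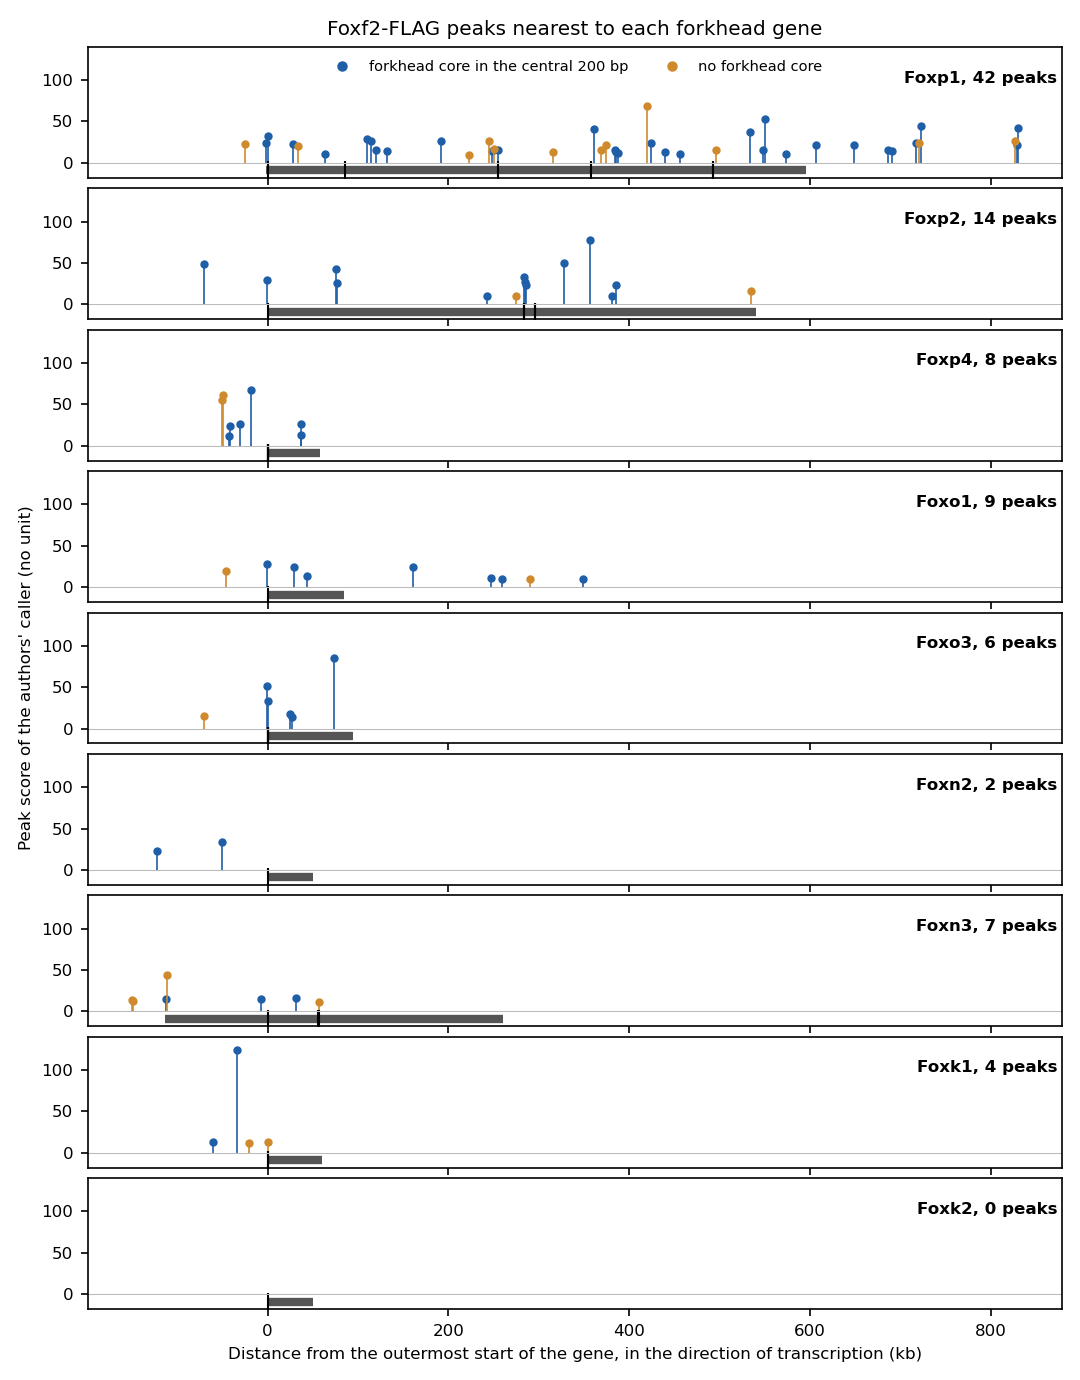
Peaks nearest to each of the 9 genes. The x axis is the distance from the gene's outermost protein-coding start in kb, positive in the direction of transcription, and the y axis is the peak score. The annotated gene is a grey bar and its starts are black ticks (for Foxn3, and slightly for Foxp1, the bar reaches past the outermost start). Foxp1 peaks lie all along and beyond the gene, those of Foxk1 lie at or upstream of its start with 1 at 124.6, and Foxk2 has none.

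Foxp1 was nearest to 42 peaks, 45.7% of the 92. It lies on chromosome 6 from 98925338 to 99522721 on the minus strand, a span of 597.4 kb. The annotation's basic set has 6 protein-coding starts there, the outermost at 99520997, short of the annotated 5' end. Of its peaks, 30 lay within the gene, 10 beyond its 3' end and 2 beyond its 5' end. Scores ran from 10.1 through a median of 21.2 to 68.8, against a median of 16.2 for all other peaks. In the highest-scored decile of the list stood 5 of the 42, beside 9.97% of the peaks of all other genes.

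The 3 highest-scored Foxp1 peaks all lay far from a start. The highest, at 68.8, was intronic, 61.4 kb downstream of the nearest start, and held no forkhead core. The next, at 53.4, was intronic and 57.3 kb downstream of a start, and its single core sat at the peak midpoint (chr6:98970808-98971020). The third, at 44.0, lay 230.7 kb downstream of a start, in intergenic sequence beyond the 3' end, and held 3 cores (chr6:98797478-98797690). The central 200 bp of the third are shown because they hold several cores, which are in capitals (plus strand, chr6:98797485-98797684).
Foxp1 peak scored 44.0: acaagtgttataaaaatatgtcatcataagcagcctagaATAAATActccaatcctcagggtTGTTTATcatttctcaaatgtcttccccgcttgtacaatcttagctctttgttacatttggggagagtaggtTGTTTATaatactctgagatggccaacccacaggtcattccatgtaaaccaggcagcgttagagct

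The 10 peaks beyond the 3' end of Foxp1 lay 11.3 to 234.3 kb from it. Their scores ran from 14.3 through a median of 22.75 to 44.0, and 8 of 10 held a core. The other 32 Foxp1 peaks scored from 10.1 through a median of 16.25 to 68.8, and 22 of 32 held a core. The first range lay within the second. The 3 peaks farthest from the gene lay in the noncoding gene Gm44196 and scored 41.8, 26.1 and 21.2. The one at 41.8 held 4 cores, the most of any of the 92 peaks. It was also the Foxp1 peak closest to the edge of the rule, at 337.2 kb from a Foxp1 start and 348.3 kb from that of Gm765. Just outside the rule, a peak scored 15.4 was 84.0 kb from Foxp1 and 61.8 kb from Eif4e3.

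The 5 groups of Foxp1 starts cut the gene into intervals, which held from 1 to 10 peaks. From the innermost start group to the next, over 134.8 kb, there were 10 peaks. The following interval of 103.5 kb held 1 peak, with a score of 12.7 and no core. The interval after that, of 168.8 kb, again held 10. Between these values stood the interval from the 3' end to the innermost start, with 5 peaks in 102.9 kb, and the outermost interval, with 3 in 85.7 kb. Of the 5 start groups, 2 had a peak within 1 kb: the outermost, with a peak 71 bp upstream scored 32.7, and the one at position 99266515, with a peak 54 bp upstream scored 16.1. Each of these held 1 core. The start shared by the most transcripts, at 99163018, had its nearest peak 2832 bp downstream, with a score of 41.2 and 1 core.

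**Figure D2:**
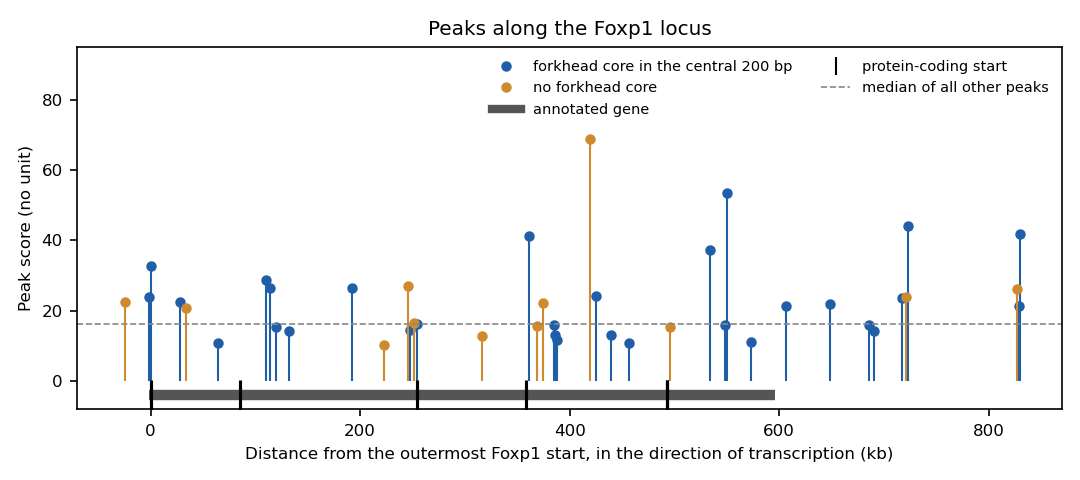
Peaks along the Foxp1 locus. The x axis is the distance from the outermost Foxp1 start in kb in the direction of transcription, the y axis the peak score, and the dashed line the median of all other peaks (16.2). The highest peak, at 68.8, has no core, and 10 peaks lie beyond the 3' end of the gene.

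Foxp1 peaks were close to one another. Of the 42, 29 had another peak of the list within 10 kb (69.0%, exact 95% interval 52.9 to 82.4), as did 51 of the 92 peaks of the 9 genes (55.4%, interval 44.7 to 65.8). In the whole list the share was 36.7%. A gene chosen for many peaks will have close ones, so these shares are a description. The 4 peaks nearest to the start at 99266515 spanned 8.91 kb and scored from 14.5 to 27.0.

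Foxp2, the paralogue known for its role in speech in humans and which acts with Foxp1 in lung and oesophagus development in mice, had 14 peaks. It lies on chromosome 6 from 14901349 to 15441977 on the plus strand, and 12 of its peaks lay within this span. Scores ran from 10.3 through a median of 26.75 to 77.2, and 4 of the 14 stood in the highest-scored decile. The highest was intronic, 60.9 kb downstream of a start (chr6:15257763-15257975). The next 2 were an intronic peak 32.8 kb downstream of a start, scored 49.7 with 1 core, and an intergenic peak 70.4 kb upstream, scored 48.4 with 3 cores.

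Of the 3 Foxp2 start groups, 2 had peaks within 1 kb, and these peaks all held a core. The outermost start had a peak 389 bp upstream, scored 29.5, with 1 core. At the inner group, starts at 15184647 and 15185506, a pair of peaks 0.767 kb apart scored 33.4 and 27.4 and held 2 cores each. A further peak 1325 bp downstream of the start at 15185506 scored 23.6 and also held 2 cores. In all, 12 of the 14 Foxp2 peaks held a core and 7 held 2 or more.

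Foxp4, the remaining Foxp member, had 8 peaks packed into the smallest territory of the 8 genes with peaks. The territory is the sequence nearer to a gene's starts than to any other gene's, and that of Foxp4 was 101.9 kb, which gave 7.85 peaks per 100 kb. Foxp1 had 4.62, Foxo3 2.61, Foxp2 2.22, Foxo1 1.97, Foxn3 1.37, Foxk1 1.32 and Foxn2 0.861 peaks per 100 kb. The autosomes as a whole held 1.03 per 100 kb of assembly length. In this measure Foxp4 ranked 319 and Foxp1 1121 among the 21938 genes, so the order of these 2 genes by number of peaks turned round when room for peaks was taken into account.

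None of the 8 Foxp4 peaks was within 10 kb of a start, and all 8 were nearer to a start of a gene not classed as protein-coding. Upstream of the gene, 6 lay in intergenic sequence, from 18.6 to 50.7 kb from the start, with scores of 67.4, 26.6, 23.7, 11.2, 60.7 and 54.9 from near to far. The 3 that scored over 50 stood in the highest-scored decile. The one nearest to the gene, at 67.4, held 3 cores, whereas the 2 farthest, at 60.7 and 54.9, lay 1.12 kb apart and held none. Their GC contents were 72% and 66%, against a median of 43.5% over all other peaks. The other 2 Foxp4 peaks were 36.2 and 36.9 kb inside the gene. The first had its midpoint in a coding exon, the other was intronic with a score of 26.6, and each held 1 core. A further peak within the Foxp4 span (score 13.9) was 1.19 kb nearer to a start of Mdfi and was not counted.

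**Figure D3:**
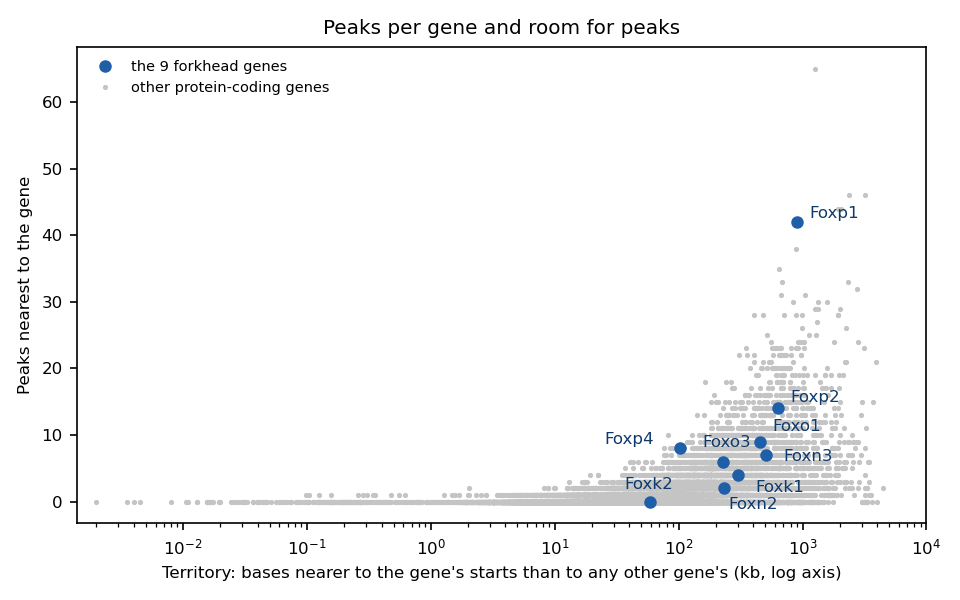
Number of peaks per gene against the length of its territory in kb (log axis), for the 9 genes (blue, named) and all other protein-coding genes (grey). Foxp1 has 42 peaks in 908.4 kb and Foxp4 has 8 in 101.9 kb, and Foxk2, with none, has 58.6 kb.

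By number of peaks, Foxp1 ranked 6 among all protein-coding genes. The 3 genes just above it, with ties in alphabetical order, were Flrt2 with 46 peaks, a number that Adgrl2 shared, and Auts2 and Robo1 with 44 each, and the 3 just below were Runx1t1 with 38, Wwox with 35 and Bnc2 with 33. Per 100 kb of territory Foxp1 had 4.62 peaks, those above had 1.43, 2.28 and 2.15, and those below had 4.33, 5.43 and 4.86. Foxp2 had 14 peaks, the same number as Erg, Etv1, Fam49a, Gli3, Gm11146 and Gpc5 each had, its neighbours in alphabetical order at that count. Likeness here is the number of peaks in 1 list and says nothing of the genes' use.

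Foxo1 had 9 peaks and Foxo3 had 6. The highest-scored one lay at the start at Foxo1 and in an intron far from the start at Foxo3, and both genes had peaks beside a start. At Foxo1, an AKT-regulated activator with roles in metabolism and vessel growth (chr3:52268336-52353221, plus strand), scores ran from 10.1 through a median of 13.9 to 27.9. None stood in the highest-scored decile. The highest was the promoter peak 232 bp upstream of its single start, with 1 core. Beyond the 3' end lay 5 peaks, 160.8 to 349.1 kb downstream of the start. The nearest of them scored 24.8 with 2 cores, and the other 4 scored from 10.1 to 10.7. A peak 46.4 kb upstream of Foxo1, scored 19.9 without a core, lay 11 bp downstream of the start of the noncoding gene Gm37202.

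At Foxo3, a relative with roles in stress resistance and quiescence (chr10:42181841-42276755, minus strand), scores ran from 13.9 through a median of 25.9 to 84.9. The highest peak, in an intron 73.2 kb downstream of a start, ranked 283 in the list and had the highest focus ratio of the 92 peaks, 0.911. The focus ratio is a deposited fraction, taken here to be higher for sharper peaks, as the labels do not define it. The start of Foxo3 was flanked by a pair, 1.187 kb upstream with a score of 51.2 and 0.792 kb downstream with a score of 33.8. Each of the pair held 1 core. Of the 6 peaks, 5 held a core, and the one without, at 15.2, lay 70.7 kb upstream in an intron of the neighbouring gene Afg1l.

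Foxn3 had 7 peaks and Foxn2 had 2. Foxn3 (chr12:99190078-99563582, minus strand) had scores from 11.3 through a median of 14.8 to 44.2. Its highest peak (chr12:99561217-99561429) lay 111.2 kb upstream of the nearest basic protein-coding start and held no core. It was outside the basic transcripts but inside the annotated span of the gene, close to the 5' end at 99563582. The peak nearest to a start was 71 bp upstream of it, scored 11.3 and held none either. In all, 3 of the 7 held a core. Foxn2 (chr17:88440711-88490533, plus strand) had 2 peaks, both upstream, at 50.4 kb with a score of 34.0 and 2 cores and at 122.6 kb with a score of 22.3 and 1 core. No peak lay within its span.

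Foxk1 and Foxk2 encode closely related repressors, and their loci differed. Foxk1 (chr5:142401497-142462011, plus strand) had 4 peaks, scored 124.6, 13.1, 12.9 and 12.4. The peak at 124.6 was the highest of the 92 and ranked 63 in the whole list. It lay in intergenic sequence 34.0 kb upstream of the start (chr5:142367396-142367608), with a focus ratio of 0.891. The promoter peak of Foxk1, 44 bp upstream of its start, scored 13.1, held no core and had a GC content of 78%. A further peak within the Foxk1 span, scored 23.2 and so higher than 3 of the 4, was 39.1 kb from a Foxk1 start and 23.5 kb from one of Ap5z1, and was not counted. Foxk2 (chr11:121259990-121309896, plus strand) had no peak in its territory of 58.6 kb. The peak nearest to its start was 107.4 kb away, with a score of 41.0, and lay 12.9 kb from a start of Wdr45b.

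The central 200 bp of the Foxk1 peak are shown because their cores form an unusual arrangement (plus strand, chr5:142367403-142367602). Cores on opposite strands overlap, so that the capitals read the same on both strands.
Foxk1 peak scored 124.6: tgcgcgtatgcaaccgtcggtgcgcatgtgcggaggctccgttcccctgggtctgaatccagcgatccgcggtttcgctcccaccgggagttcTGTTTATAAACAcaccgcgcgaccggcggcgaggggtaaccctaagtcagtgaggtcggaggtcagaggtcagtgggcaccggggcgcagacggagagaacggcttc

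This inverted double core was searched for after it was seen. It occurred in 32 of 25704 peaks (0.124%) and in 4 of 51408 flanking windows (0.00778%). Scores of the 32 peaks ran from 10.1 through a median of 21.15 to 124.6, so the Foxk1 peak was the highest of them. It was the only one of the 92 peaks with this sequence.

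**Figure D4:**
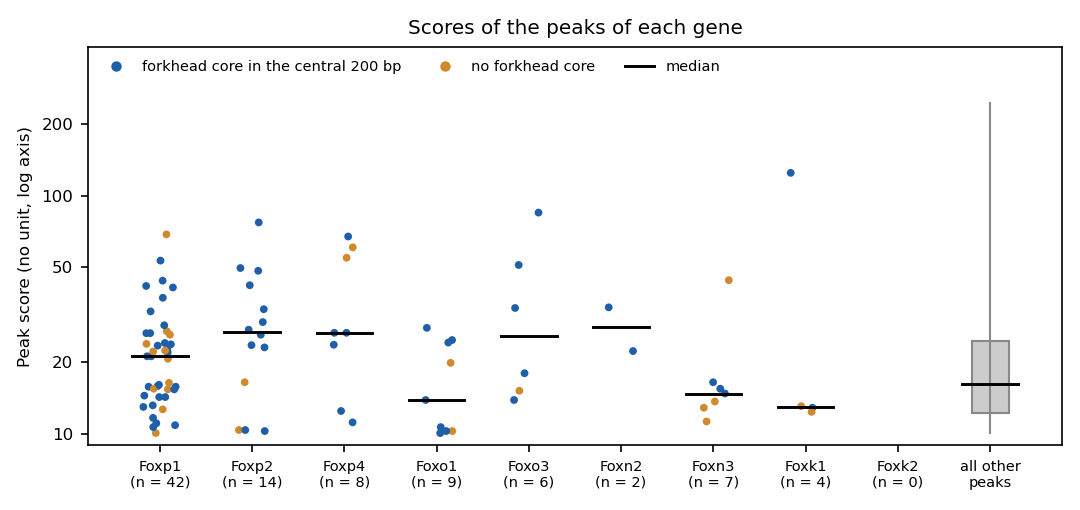
Scores of the peaks of each gene (points, one per peak, log axis) with the median as a black bar; the box for all other peaks spans the middle 50% and its line the full range. Medians run from 13.0 at Foxk1 (4 peaks) to 28.15 at Foxn2 (2 peaks), and Foxk1 has the highest single peak.

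As a group the 92 peaks scored from 10.1 through a median of 21.6 to 124.6, and all other peaks from 10.1 through 16.2 to 243.9. In the highest-scored decile stood 16 of the 92 (17.4%, exact 95% interval 10.3 to 26.7) and 9.97% of the other peaks. Foxp1 and Foxp2 supplied 9 of the 16, Foxp4 3, Foxo3 2 and Foxn3 and Foxk1 1 each. Focus ratios ran from 0.573 to 0.911 with a median of 0.7765, against a median of 0.783 elsewhere. GC content had a median of 43.25% in the 92 peaks and 43.5% elsewhere. Scores come from the same peak calling that chose the genes and were not tested.

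Forkhead cores on either strand were found in the central 200 bp of 67 of the 92 peaks (72.8%, exact 95% interval 62.6 to 81.6), beside 72.5% of all peaks in the list. Windows 2000 bp to either side of the 92 peaks held one in 38 of 184 cases (20.7%, interval 15.1 to 27.2). The share in the 92 peaks was near that of the list, and its interval lay wholly above that of the flanks. Of the 96 matches, 60 (62.5%) lay within 20 bp of the peak midpoint, beside 57.9% of matches in all other peaks. The core nearest to the midpoint was on the transcribed gene's own strand in 28 of 67 peaks.

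ATAAACA was the most common form, in 36 of the 92 peaks (39.1%) and in 38.1% of all other peaks. GTAAACA was in 24 of the 92 (26.1%, interval 17.5 to 36.3) and in 27.5% (7031 of 25612) of the others. It was in 6 of 42 Foxp1 peaks (14.3%, interval 5.43 to 28.5) and in 18 of the 50 peaks of the other members (36.0%, interval 22.9 to 50.8). The interval for Foxp1 included the share of the whole list. Of the 92, peaks with a core scored a median of 23.1 (n = 67), and those without one a median of 16.4 (n = 25). The ranges overlapped, 10.1 to 124.6 and 10.1 to 68.8. A core was in 75.9% of member peaks scored at or above the list median and in 68.4% of those below it. In all other peaks these shares were 78.4% and 66.6%, so the link was not particular to the 92.

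Sequences of other factors were at similar shares. The E-box CATCTG, read by basic helix-loop-helix factors, was in 24 of the 92 peaks (26.1%, interval 17.5 to 36.3) and in 28.0% of all other peaks. The E-box CAGCTG was in 12 (13.0%, interval 6.93 to 21.7) and in 18.7%. TGACAG of TALE homeodomain factors was in 19 (20.7%, interval 12.9 to 30.4) and in 18.0%, and GGAATG of TEAD factors in 18 (19.6%, interval 12.0 to 29.2) and in 15.1%. GACGC, a site that some Foxn proteins read besides the forkhead core, was in 10 (10.9%, interval 5.34 to 19.1) and in 8.50%. The GLI sequence GACCACCCA was in 0 of the 92, which allows a share of up to 3.93%, and in 0.320% of the others. Each of these intervals held the share of the other peaks. GTAAACAA, which is the first core form with 1 more base, was in 12 peaks (13.0%, interval 6.93 to 21.7) and in 8.62%. A match is a match of letters and not evidence of a bound site.

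**Figure D5:**
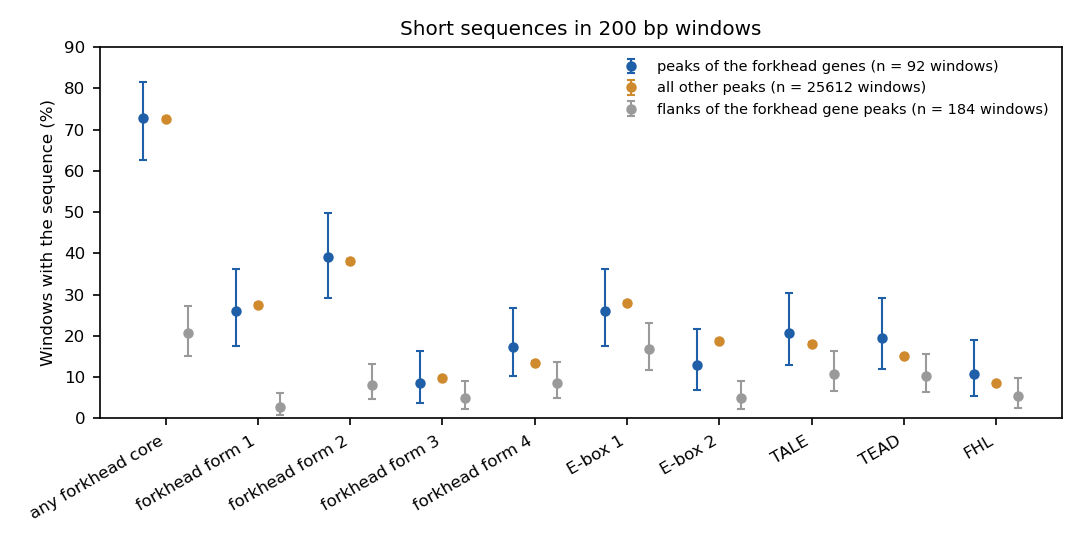
Percent of 200 bp windows with each short sequence, with exact 95% intervals, in the 92 peaks (blue), all other peaks (orange) and the flanks of the 92 (grey). Forkhead forms 1 to 4 are the cores in the order in which the text first names them (26.1%, 39.1%, 8.70% and 17.4% of the 92 peaks), the E-boxes follow the order of the text, and FHL is the Foxn site; blue and orange points lie near each other throughout.

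Promoters were defined by any start of a basic transcript, whatever its gene type, and reached 1000 bp before it and 100 bp past it. Annotated starts outside the basic set were not used. They held 9 of the 92 peaks (9.78%, interval 4.57 to 17.8), beside 8.52% of all peaks in the list. Of these, 7 lay at starts of the members themselves, 2 each at Foxp1 and Foxp2 and 1 each at Foxo1, Foxn3 and Foxk1. The other 2 lay at starts of noncoding genes within the territories of Foxp1 and Foxo1. Promoter peaks of the 9 scored from 11.3 through a median of 19.9 to 33.4 and were below the highest peaks of the loci, except at Foxo1. Those at Foxk1 and Foxn3, with GC contents of 78% and 67.5%, lacked a core, and the 5 others at member starts held 1 or 2.

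Counting peaks within 1 kb on either side, 6 of the 9 genes had a peak at a start (Foxp1, Foxp2, Foxo1, Foxo3, Foxn3 and Foxk1), beside 10.2% of all protein-coding genes. Foxp4, Foxn2 and Foxk2 had none. The genes were picked with peak numbers in view and several have more than 1 start, so this count is a description and was not tested. Within 10 kb of a start lay 19 of the 92 peaks (20.7%, interval 12.9 to 30.4), beside 20.9% of the list. More than 100 kb from a start lay 21 of the 92 (22.8%, interval 14.7 to 32.8) and 33.9% of all other peaks. The rule used these distances, and a gene's territory and number of starts bound them. The peaks also come from few loci, so the difference is a description and was not tested. Introns held 54 of the 92 (58.7%, interval 48.0 to 68.9) and 45.3% (11614 of 25612) of the other peaks. For Foxp1 alone the share was 73.8% (31 of 42) and for the other members 46.0% (23 of 50), near that of the other peaks. Foxp1 is a long gene included for its many peaks, so the intron shares are also a description and were not tested.

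Other forkhead genes were set beside the 9. Of 35 other forkhead genes, 18 (51.4%) were nearest to at least 1 peak, beside the 37.3% of all protein-coding genes, and medians were 7 peaks for the 9 genes, 1 for these 35 and 0 for all protein-coding genes. With starts of every gene type counted, the 35 stood on the other side of the background, with a peak at 7 of 35 (20%), beside 25.9% of all protein-coding genes. Foxf1, the closest relative of Foxf2, led with 11, followed by Foxc1 and Foxl1 with 9 each and Foxq1 with 8. Foxf2 itself had 2. Of the near relatives of the members, Foxo4 had 1 peak and Foxo6 and Foxp3 had none. The 9 genes had been picked from the family, so the difference is a description.

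Genes that work with the members varied. Of 17 regulators of FOXO activity, 13 (76.5%) had a peak, among them Irs2, an insulin receptor substrate, with 20, and the PI3-kinase subunit genes Pik3ca and Pik3r1 with 6 each. Of 18 textbook FOXO target genes, 13 (72.2%) had one, led by Cited2 with 19, Sesn3 with 10, the cell death gene Bcl2l11 with 8 and Gadd45a with 5. Of 13 genes for FOXP corepressor partners, 3 (23.1%) had one: Ctbp2 with 7 and Gatad2b and Hdac2 with 2 each. Of 10 FOXK and FOXN partner genes, 4 (40.0%) had one: Sin3a with 2 and Asxl1, Dvl2 and Sap30 with 1 each. The share for all protein-coding genes was 37.3% over the whole list, which is the background of the shares above. In the higher-scored part of the list, from its median score up, 2 of the 10 FOXK and FOXN partner genes (20%) had a peak. The share for all protein-coding genes in that part was 24.7%. These lists were not matched for room for peaks and were not tested.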

How the data were processed

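FLAG ChIP-seq of embryonic tongue gave 2 ChIP libraries and 1 input library. Per the submitters' processing notes and the design text, Bowtie2 2.4.1 was the aligner (mm10), SAMtools 1.7.1 was used, and HOMER called peaks with the input as control. Caller settings, sequencing depth and pooling of libraries are not stated in the labels. Each peak has a score and a focus ratio, a fraction, both as deposited by the authors. The header of the second column names focus ratio or region size, and its values were read as the ratio. Of 25707 peaks, 3 lay on an unplaced contig and were dropped, and no column belongs to a single library.

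Each peak midpoint was assigned to the closest start of a GENCODE M21 basic transcript of a protein-coding gene, on the same build. Its class (promoter, intron and so on) used basic transcripts of every gene type. Short sequences were searched, on either strand, in the central 200 bp and 2000 bp to either side. Shares carry exact (Clopper-Pearson) 95% intervals, which cover the counting of peaks only. No test was run, since the genes, lists and short sequences were chosen with earlier results of these data known. Named genes are the 9 members, the leading genes of each list (at most 4) and the neighbours of Foxp1 and Foxp2 by peak number (Adgrl2 as a tie). Peaks described singly are each member's highest-scored and nearest to a start, and the 3 highest of Foxp1 and Foxp2. Other single peaks, and Foxf2, Foxo4, Foxo6 and Foxp3, were chosen after their values were seen. One gene of a list and 1 sequence are not reported here. The assignment and the search were tested on simulated data. Tools were Python 3.11.15 with pysam 0.24.0, pandas 2.3.3, numpy 2.4.6, scipy 1.17.1 and matplotlib 3.10.9.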

Additional observations from a re-analysis of the deposited data

How the results depend on the processing

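Counts depended most on which starts and which peaks were admitted. With the higher-scored part of the list (score at or above its median), 54 peaks belonged to the 9 genes, 24 to Foxp1, and 2 of 10 FOXK and FOXN partner genes (20%) had a peak, beside 24.7% of all protein-coding genes. Within 10 kb of a start there were 19 and 8, and 11 of 35 other forkhead genes (31.4%) had a peak, beside 19.4% of all. With starts of every gene type there were 46 and 21, and 7 of the 35 (20%) had a peak, beside 25.9% of all, which turned the side of the background. Counting peaks within the gene spans gave 57. GTAAACA alone was in 26.1% of the 92 peaks, against 72.8% for the 4 forms. The number of members with a peak stayed between 6 and 8 in every setting tried, and Foxk2 had none in any of them. With 1 start per gene, Foxk1 had 7 peaks in place of 4 and Foxp1 had 32. Leaving out Foxp1, chosen after the data were seen, gave 74.0% of peaks with a core and 12.0% in promoters. No paired analysis was possible because the peaks are 1 list with no values per library, and for the same reason no library could be left out.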

Other observations

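Many of the 92 peaks were closer to a start that is not protein-coding. The matching share over the whole list is not given here, so this is not shown to be particular to these genes. With starts of every gene type, 46 stayed with their forkhead gene and 46 were nearer to another start: 21 of the 42 at Foxp1, 8 of 9 at Foxo1, all 8 at Foxp4, 4 of 7 at Foxn3, both at Foxn2, and 1 each at Foxp2, Foxo3 and Foxk1. All Foxp4 peaks, those scored 67.4, 60.7 and 54.9 included, were assigned to Foxp4 only where such starts were left out.

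A Foxp1 peak (chr6:99522835-99523047) 1.94 kb upstream of the outermost protein-coding start used here had the lowest focus ratio of the 92 (0.573). It held 3 cores and scored 23.8. It lay just beyond the annotated 5' end of the gene, at 99522721. No basic transcript starts there, so it was not classed as a promoter peak. The strongest peaks without a core were those at Foxp1 (68.8), Foxp4 (60.7 and 54.9) and Foxn3 (44.2). Near the edge of the assignment at Foxp2, the peak scored 48.4 was 70.4 kb from a Foxp2 start and 75.6 kb from one of Ppp1r3a, and the nearest uncounted peak, scored 11.2, was 81.3 kb from Foxp2 and 64.8 kb from Ppp1r3a.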
